A study of Mus musculus with 20 samples.

Results

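The genes described here make cholesterol and fatty acids and control that synthesis, and their RNA was measured in mouse T cells grown in IL-7 and IL-15. They were taken from a list of 36 gene symbols of the SREBP and LXR pathways, which was matched to the gene identifiers of the count table. All 36 were found among the 49671 genes of the table, and all 36 passed the filter on low counts that left 13290 genes for testing. Of the 36, 7 act in the mevalonate and isoprenoid steps, and 11 make squalene and lead from it to cholesterol. Another 4 control the SREBP factors, 1 carries sterols between membranes, 9 make and desaturate fatty acids, and 4 belong to the LXR branch.

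Cholesterol synthesis joins acetyl-CoA units into mevalonate, turns mevalonate into isoprenoids and squalene, and closes squalene into sterol rings that are then trimmed to cholesterol. Its genes are switched on by SREBP2, encoded by Srebf2, and fatty acid genes mainly by SREBP1, encoded by Srebf1. When membranes hold little sterol, the escort protein SCAP carries the SREBP proteins to the Golgi, where they are cleaved into active factors, and INSIG1 holds SCAP back in the endoplasmic reticulum when sterol is plentiful. LXR receptors sense oxysterols and switch on genes of cholesterol export. T cells are known to raise SREBP activity after activation, when dividing cells need new membrane, and LXR activity has been linked to slower T cell division in mice.

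The study held 4 groups of 5 libraries, and its title asks whether long expansion in IL-7 and IL-15 keeps central and stem memory properties. CD8 week 4 cells had been expanded for 25 days, CD8 week 1 cells for 4 days, CD4 week 3 cells for 18 days and CD4 week 1 cells for 4 days. All groups shared their origin in spleen and inguinal lymph nodes, activation on anti-CD3 and anti-CD28 with 1 ng/mL IL-2, expansion with IL-7 (10 ng/mL) plus IL-15 (50 ng/mL) in medium with fetal bovine serum, and a sort for CD44+CD62L+ cells to a purity above 97%. Polyclonal cells of albino B6 mice were activated for 72 h, and receptor-transgenic cells of Marilyn-BLITC and MataHari-BLITC mice for 24 h. The labels do not tell which libraries were polyclonal and which transgenic, nor whether any pair of libraries in a group had different mice or cultures as their source. The p-values therefore reflect only how far these samples spread, and that spread may be technical.

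The libraries held 13.3 to 28.3 M counted reads. T cell identity genes were present in every group, and Cd4 was at 0 in all CD8 week 4 libraries. The macrophage gene Lyz2 was at 0 in all 20 libraries, and the summed macrophage markers stood at 4.45 to 23.1 CPM of the library total at week 4 and 8.98 to 22.2 at week 1 in CD8 cells, with 1.54 to 3.51 at week 3 and 1.46 to 2.70 at week 1 in CD4 cells. Cd68 was the highest of these markers in each group, and whether macrophages or the T cells held it was not tested. CD4 week 3 replicate 2 was the highest of its group for 30 of the 36 genes and lay within the range of the CD4 week 1 libraries for 33 of them. CD8 week 1 replicate 3 was the lowest of its group for 27 of the 36, as were CD4 week 1 replicate 4 and CD4 week 3 replicate 4 in theirs. CD8 week 4 replicates 1 and 2 stood apart from the other CD8 week 4 libraries on the first principal component of the 1000 most variable tested genes (59.9 and 64.6, against 23.9 to 29.0). Counts without these libraries are given below, with values for some of the genes they moved.

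**Figure D1:**
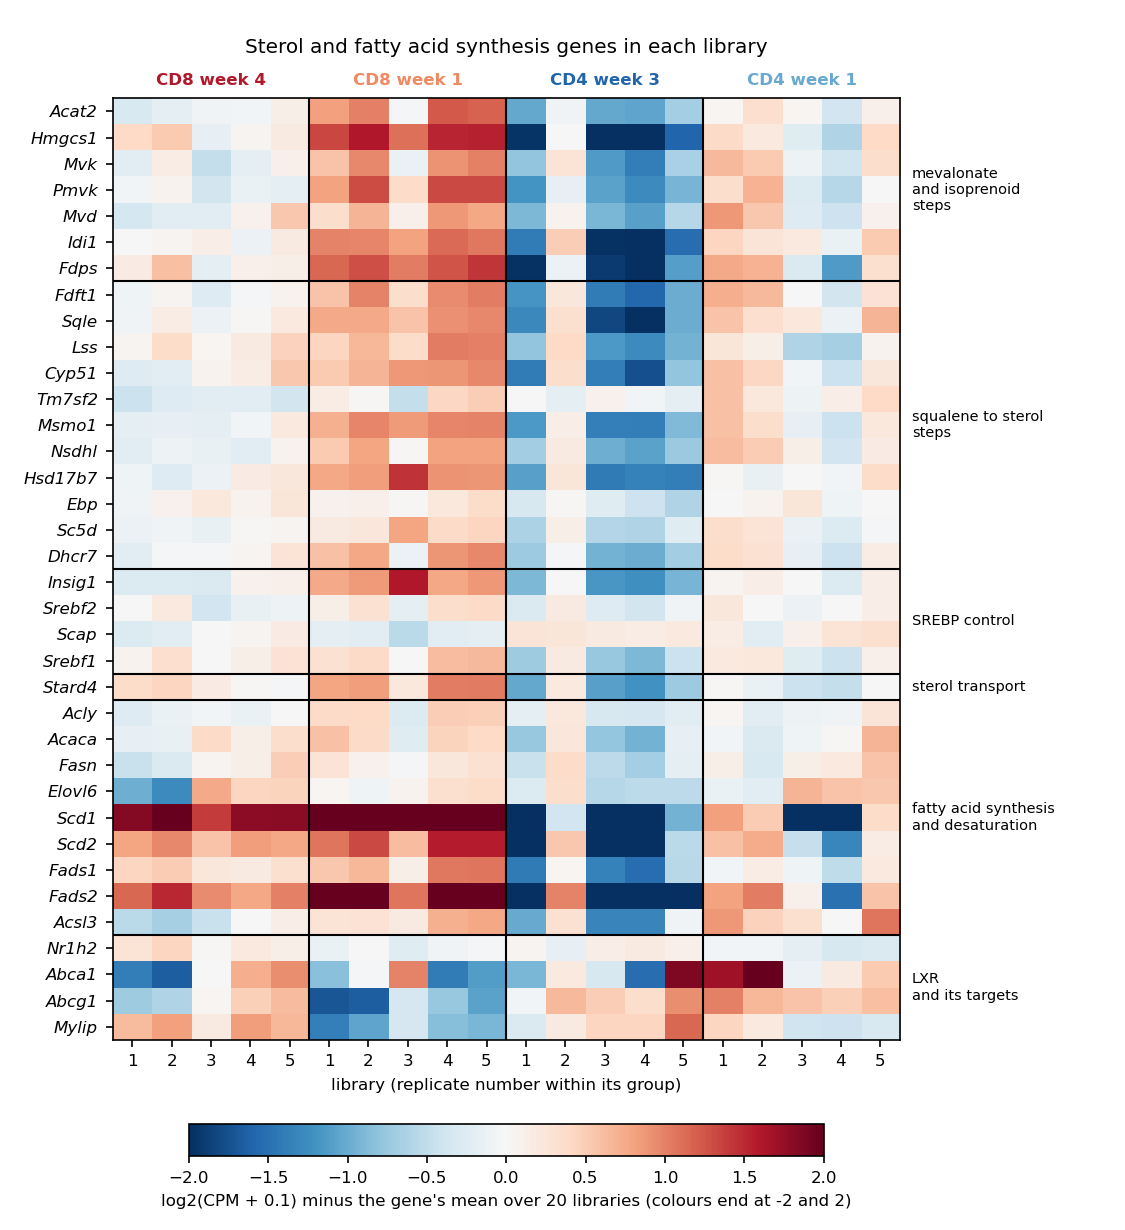
Level of each of the 36 genes (rows, by role) in each of the 20 libraries (columns, by group), as log2(CPM + 0.1) minus the gene's mean over the 20 libraries, with colours that end at -2 and 2. Most sterol synthesis genes are red in CD8 week 1 and blue in CD4 week 3 except for CD4 week 3 replicate 2, the highest library of its group for 30 genes.

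Levels per exon length differed widely between the genes. In RPKM (CPM divided by exon length in kilobases), the means of Hmgcs1, which encodes HMG-CoA synthase of the mevalonate steps, were 88.4 at week 4 and 205 at week 1 in CD8 cells, with 30.4 at week 3 and 80.0 at week 1 in CD4 cells, the highest of the 18 sterol synthesis genes in each group. Scd2, which encodes a stearoyl-CoA desaturase, stood at 204 RPKM in week 4 and 285 RPKM in week 1 CD8 cells, and at 58.5 RPKM in week 3 and 128 RPKM in week 1 CD4 cells. Its paralog Scd1 stood at 8.45 RPKM in week 4 and 28.3 RPKM in week 1 CD8 cells, and at 0.605 RPKM in week 3 and 2.25 RPKM in week 1 CD4 cells. Srebf2 stood between 95.3 and 122 RPKM in the 4 groups, and Srebf1 between 25.2 and 46.3. The cholesterol exporter gene Abca1 was at most 0.253 RPKM in any group, while Abcg1, another exporter gene, had means of 7.57 to 24.5. Reads placed at several positions were not counted, so any reads that paralogs such as Scd1 and Scd2 share are missing from both, and their levels may be too low to that extent.

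Promoters of some of the genes are shown, to let their sequence be read beside the values. RefSeq windows on GRCm38.p6 were at hand for 28 of the 36 genes (not Abcg1, Fads1, Fdft1, Fdps, Scd1, Scd2, Sqle and Stard4), and the 250 bases before the start were searched on both strands. The letters TCACNCCAC, a form of the sterol regulatory element bound by SREBP factors, were found in 1 of 28 (Hmgcs1) and in 1.22% of 27025 genes. The letters CCAAT, the core of the site of the co-factor NF-Y, were found in 20 of 28 and in 37.5% of all genes, and CACGTG, an E-box that SREBP1 and several other factors can bind, in 6 of 28 and in 6.86% of all. The LXR element (AGGTCA, 4 bases of any kind, then AGGTCA) was found in 0 of 28 and in 0.0148% of all genes. Matches to these motifs are a description and not binding sites. The choice of genes to show followed no set rule, and each of them holds CCAAT. Acat2, which had a window and was lower after long culture in both cell types, held none of these motifs. Below, 5 genes that were lower after long culture in both cell types and Mylip, which was higher in CD8 cells, are written 5′ to 3′ on the strand of the gene, with capitals at each match to TCACNCCAC, CCAAT or CACGTG on either strand (CCAAT on the other strand reads ATTGG), from chr13:119690171-119690315 (Hmgcs1, plus strand), chr13:8885516-8885605 (Idi1, plus), chr8:64733624-64733743 (Msmo1, minus), chr1:169969266-169969375 (Hsd17b7, minus), chr5:28071192-28071321 (Insig1, plus) and chr13:45389547-45389686 (Mylip, plus).
Hmgcs1: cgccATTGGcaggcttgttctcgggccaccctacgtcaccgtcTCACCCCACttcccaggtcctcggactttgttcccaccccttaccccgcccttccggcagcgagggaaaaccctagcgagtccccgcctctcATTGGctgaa
Idi1: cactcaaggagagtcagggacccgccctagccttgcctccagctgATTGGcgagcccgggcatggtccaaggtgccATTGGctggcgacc
Msmo1: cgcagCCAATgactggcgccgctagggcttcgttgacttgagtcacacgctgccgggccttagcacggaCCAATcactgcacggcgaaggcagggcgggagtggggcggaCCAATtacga
Hsd17b7: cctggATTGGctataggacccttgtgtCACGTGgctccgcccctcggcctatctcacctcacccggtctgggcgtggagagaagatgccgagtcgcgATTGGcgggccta
Insig1: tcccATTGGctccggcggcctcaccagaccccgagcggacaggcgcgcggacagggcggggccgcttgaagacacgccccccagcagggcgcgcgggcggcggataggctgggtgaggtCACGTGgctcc
Mylip: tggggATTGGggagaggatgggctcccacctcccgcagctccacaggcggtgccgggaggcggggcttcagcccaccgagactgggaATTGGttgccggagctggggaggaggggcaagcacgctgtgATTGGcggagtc
The TCACCCCAC of Hmgcs1 began 137 bases before the RefSeq start of its window, and the genes shown held 1 to 3 matches to CCAAT each in these stretches. RefSeq starts differ from the gene coordinates of the count table, which are the ones given for single genes below. By the latter, the Idi1 and Msmo1 stretches lie inside the gene (Idi1 starts at 8885501, and Msmo1, on the minus strand, at 64733792).

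**Figure D2:**
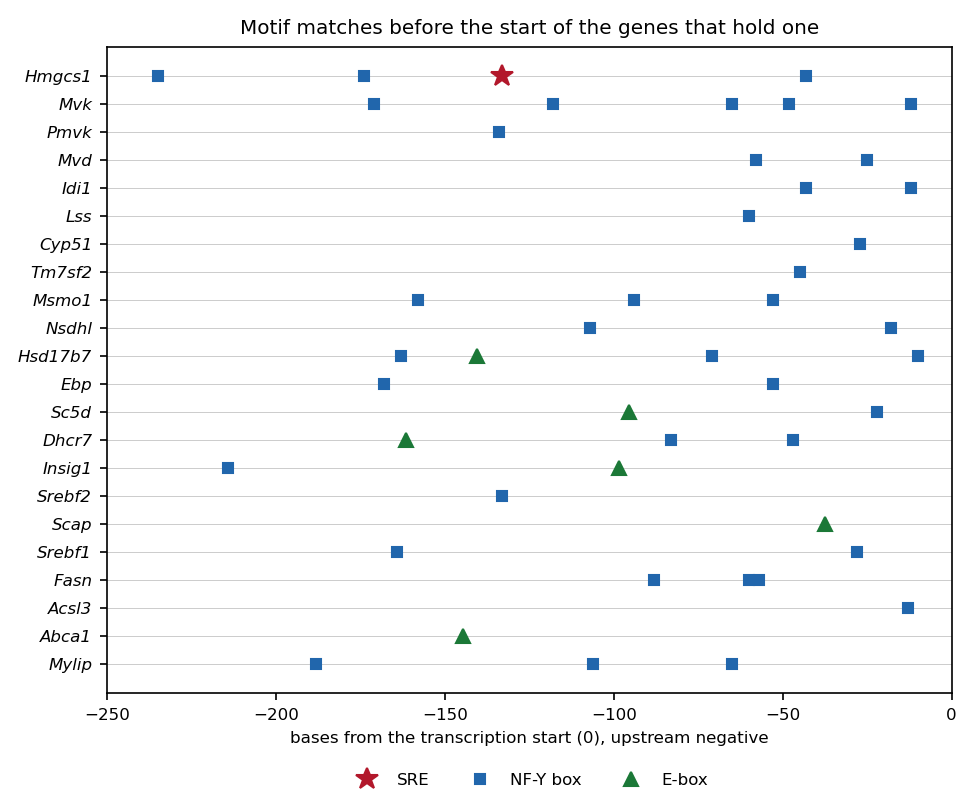
Distance from the RefSeq transcription start (x axis, bases, upstream negative) of each match to the sterol regulatory element letters (SRE, star), the CCAAT letters (NF-Y box, square) and the E-box letters (triangle) in the 250 bases before the start, for the members that hold one (rows). The only star is at Hmgcs1, while squares stand in 20 of the 28 genes with a window.

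The first comparison asked how CD8 cells changed between week 1 and week 4. The sterol synthesis genes were lower at week 4 at most of their steps, the SREBP inhibitor gene Insig1 was lower with them, and 3 genes of the LXR branch were higher. Of the 36 genes, 16 fell, 3 rose and 17 did not pass the test (adjusted p under 0.05, edgeR with the quasi-likelihood fit), beside 16.4% of all 13290 tested genes that fell and 17.1% that rose. Their median log2 fold change was -0.59, beside a median of 0.03 over all tested genes. Every week 4 library lay below every week 1 library for 12 of the 36, beside 9.78% of all genes, and above it for 2, beside 11% of them. In bulk libraries, fewer cells that express a gene and less RNA per cell cannot be told apart.

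In the mevalonate and isoprenoid steps, 6 of 7 genes fell in CD8 cells. Hmgcs1 (ENSMUSG00000093930, GRCm38 chromosome 13, 119690462 to 119708086) stood at 323, 353, 220.3, 255 and 278 CPM in the week 4 libraries, against 618, 743, 530.4, 711 and 719 CPM in the week 1 libraries. The lowest week 1 library was well above the highest of week 4, and Hmgcs1 fell by 1.22 on the log2 scale (SE 0.36, adjusted p 0.0141). Pmvk, the kinase that adds the next phosphate to mevalonate phosphate, stood at 21.5, 23.4, 17.1, 20.2 and 19.6 CPM at week 4, against 39.0, 55.1, 28.7, 55.8 and 55.6 CPM at week 1. Its groups did not overlap either, and it fell by 1.20 (SE 0.25, adjusted p 0.00161). Acat2, the thiolase that joins acetyl-CoA units at the entry of the pathway, stood at 25.5, 27.8, 29.9, 30.1 and 34.0 CPM at week 4, against 55.3, 63.0, 30.7, 73.2 and 71.3 CPM at week 1. It fell by 1.00 (SE 0.21, adjusted p 0.00232), and only its week 1 replicate 3 came down into the week 4 range. The farnesyl diphosphate synthase gene Fdps (-1.06, adjusted p 0.0300), the isopentenyl diphosphate isomerase gene Idi1 (-0.95, 0.0441) and the mevalonate kinase gene Mvk (-0.83, 0.0301) fell too, and the decarboxylase gene Mvd stood at -0.58 (adjusted p 0.0910).

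From the making of squalene to cholesterol, 7 of 11 genes fell in CD8 cells and all 11 had negative log2 fold changes. Msmo1, an oxidase that removes methyl groups from the sterol ring, stood at 60.9, 61.7, 60.7, 66.5 and 79.3 CPM at week 4, against 113.5, 136.1, 125.6, 136.6 and 138.5 CPM at week 1. The week 1 libraries were close together and all above week 4, and Msmo1 fell by 0.98 (SE 0.24, adjusted p 0.00474). Hsd17b7, a reductase of the same demethylation, stood at 23.8, 21.2, 23.3, 28.2 and 29.6 CPM at week 4, against 43.1, 45.2, 69.2, 47.2 and 46.8 CPM at week 1. It fell by 1.00 (SE 0.26, adjusted p 0.00743; -0.85 and 0.0169 without week 1 replicate 3), and its highest value was in week 1 replicate 3, the library in which most of the other genes were lowest. Nsdhl (-0.74), Dhcr7 of the last step to cholesterol (-0.64), the squalene synthase gene Fdft1 (-0.85), Sc5d (-0.47) and Tm7sf2 (-0.46) fell as well, with adjusted p between 0.0151 and 0.0295. The squalene epoxidase gene Sqle (-0.76, adjusted p 0.0659), Cyp51 (-0.70, 0.0819), the lanosterol synthase gene Lss (-0.50, 0.163) and Ebp (-0.05, 0.730) did not pass. Across both stretches the 18 genes had a median of -0.79, and 13 fell. Their summed level was 1212 ± 114 CPM at week 4 and 2171 ± 251 CPM at week 1 (SD, n = 5 each).

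The decreases in CD8 cells depended on the libraries used. Within title range A (replicates 1 to 3 of each group, by the numbers in the library titles) 8 of the 36 fell and 0 rose, and within title range B (replicates 4 and 5) 27 fell and 5 rose, beside 2.31% and 25.1% of all genes that fell and 1.85% and 24.1% that rose. The medians of the 36 genes were -0.61 in range A and -0.73 in range B. Without week 4 replicates 1 and 2, 9 fell, beside 14.8% of all genes. Without week 1 replicate 3, 17 fell and 3 rose, beside 18.7% and 21.1% of all genes. Hmgcs1, Msmo1, Hsd17b7 and Insig1 kept their call in both ranges, with log2 fold changes in ranges A and B of -1.09 and -1.44 (Hmgcs1), -1.05 and -0.93 (Msmo1), -1.22 and -0.72 (Hsd17b7) and -1.41 and -0.74 (Insig1), while Acat2 and Pmvk missed it in range A (adjusted p 0.119 and 0.0798).

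**Figure D3:**
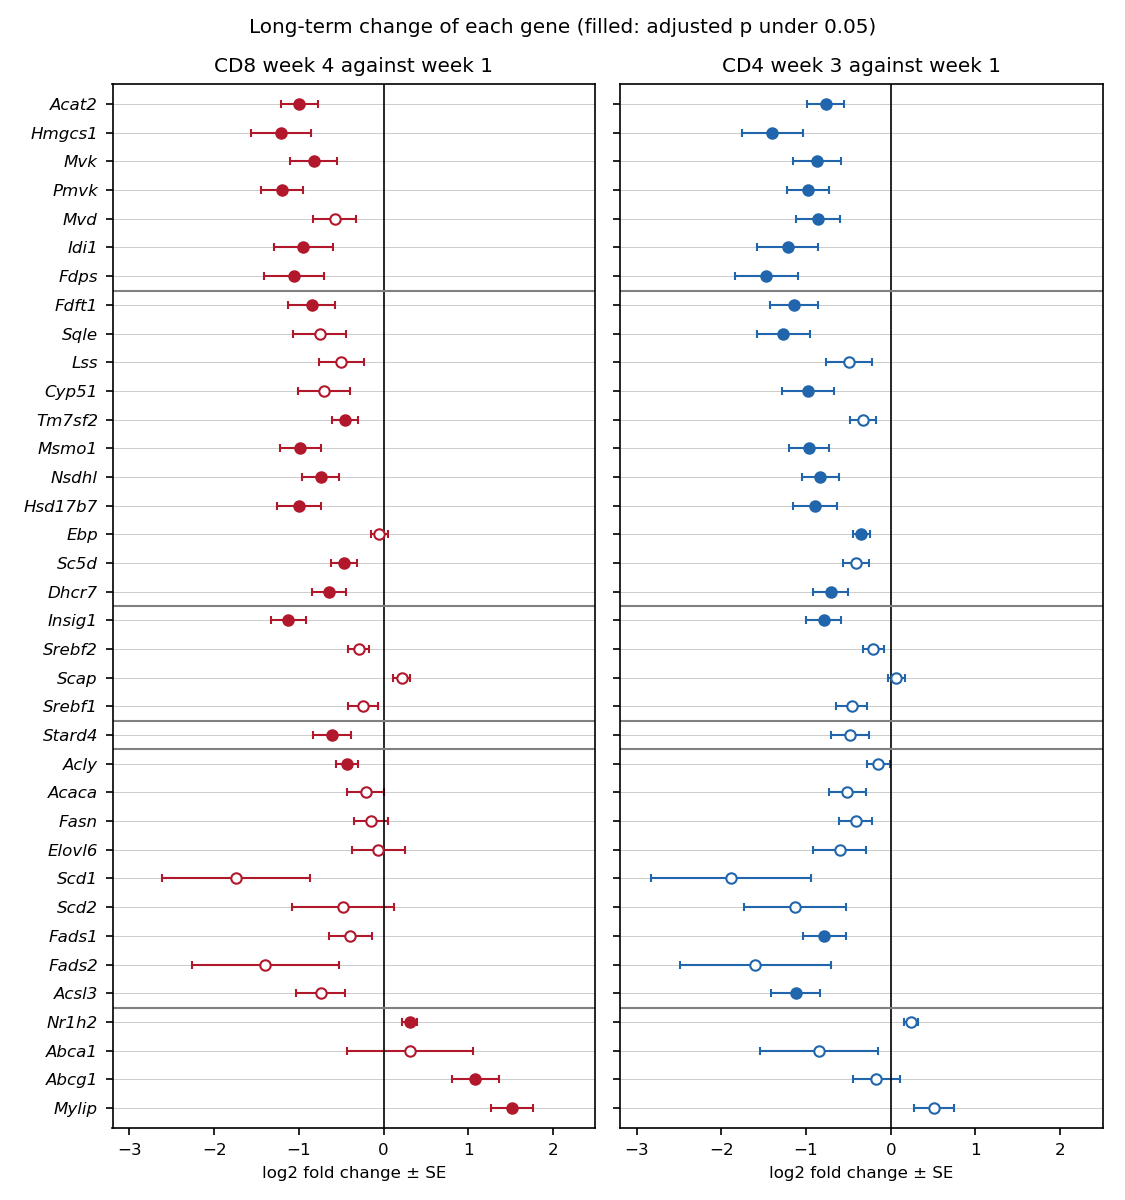
Log2 fold change with its SE (x axis) of each of the 36 genes (rows, separated by role) for CD8 week 4 against week 1 (left) and CD4 week 3 against week 1 (right), filled where the adjusted p was under 0.05. All 18 sterol synthesis genes, at the top, lie below 0 in both panels, and the 3 filled points above 0 in the CD8 panel are Nr1h2, Abcg1 and Mylip.

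Of the 4 control genes, Insig1 fell in CD8 cells and the other 3 did not pass. Insig1 (ENSMUSG00000045294, chromosome 5, 28071363 to 28078662) stood at 53.6, 54.1, 53.3, 69.3 and 69.9 CPM at week 4, against 109.8, 117.5, 197.3, 110.7 and 119.2 CPM at week 1. All week 1 libraries were above all week 4 libraries, with replicate 3 far above the rest, and the gene fell by 1.12 (SE 0.21, adjusted p 0.000821; -0.93 and 0.00123 without that replicate). Srebf2 stood at 521, 601, 405.6, 473.5 and 493.1 CPM at week 4, against 573, 652, 466, 671 and 690 CPM at week 1 (-0.29, adjusted p 0.0762). Its groups overlapped, and the call was gained by leaving out CD8 week 1 replicate 3 (-0.37, adjusted p 0.0170), CD8 week 4 replicates 1 and 2 (-0.42, 0.0331) or CD4 week 3 replicate 2 (-0.31, 0.0367). Srebf1 stood at 206, 248, 196, 213 and 240 CPM at week 4, against 241, 256, 197, 300.3 and 309 CPM at week 1 (-0.24, adjusted p 0.320), and these groups overlapped. Scap stood at 112, 116, 134, 140.0 and 151 CPM at week 4, against 119, 117, 93.3, 116 and 118 CPM at week 1 (0.21, adjusted p 0.106), with week 4 replicates 1 and 2 inside the week 1 range and the other 3 above it. The sterol carrier gene Stard4 fell by 0.61 (adjusted p 0.0438).

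Of the 9 fatty acid genes, 1 fell in CD8 cells and all 9 had negative log2 fold changes (median -0.44). The gene that fell was Acly, which encodes the enzyme that makes cytosolic acetyl-CoA from citrate and so feeds both pathways (-0.44, SE 0.13, adjusted p 0.0168). It stood at 326, 353, 372, 356 and 390 CPM at week 4, against 508, 513, 321, 546 and 543 CPM at week 1. Week 1 replicate 3 lay below all week 4 libraries and the other 4 above them, and the change was -0.55 without it (adjusted p 0.000733), while Acly was no longer called without week 4 replicates 1 and 2 (-0.38, 0.0785). Fasn, the fatty acid synthase gene, stood at 594.5 ± 155 CPM at week 4 and 659 ± 63.4 CPM at week 1 (SD, n = 5 each; -0.15, adjusted p 0.590), and Acaca, whose product makes malonyl-CoA, at 65.6 ± 11.9 CPM at week 4 and 76.1 ± 14.9 CPM at week 1 (-0.21, 0.489). Scd1 stood at 41.1, 52.5, 30.3, 40.0 and 40.4 CPM at week 4, against 94.2, 133.8, 52.9, 201.4 and 200.7 CPM at week 1. The groups did not overlap, the week 1 libraries were far apart, and the change of -1.74 (SE 0.88) did not pass (adjusted p 0.134). Scd2 was far more abundant, with 1112, 1253, 957, 1142 and 1098 CPM at week 4, against 1346, 1604, 991, 1906 and 1919 CPM at week 1 (-0.48, SE 0.60, adjusted p 0.566). Scd2 fell within title range B (-0.79, adjusted p 0.000217) and not within title range A (-0.26, 0.446). Fads1 (-0.39), Fads2 (-1.40), Elovl6 (-0.06) and Acsl3 (-0.74) did not pass (adjusted p 0.240, 0.225, 0.898 and 0.0566). The first 2 desaturate polyunsaturated fatty acids, Elovl6 elongates palmitate and Acsl3 couples fatty acids to CoA.

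In the LXR branch, 3 of 4 genes rose in CD8 cells. Mylip (ENSMUSG00000038175, chromosome 13, 45389742 to 45412019), an LXR target that encodes a ubiquitin ligase for lipoprotein receptors, stood at 38.9, 44.4, 28.5, 44.9 and 40.1 CPM at week 4, against 9.65, 12.1, 19.99, 13.9 and 13.3 CPM at week 1. Every week 4 library was above every week 1 library, and Mylip rose by 1.51 (SE 0.25, adjusted p 0.000325), the smallest adjusted p of the 36 genes. Abcg1 (ENSMUSG00000024030, chromosome 17, 31057698 to 31115777) stood at 37.9, 41.0, 63.8, 86.9 and 96.3 CPM at week 4, against 18.9, 19.8, 49.1, 36.6 and 29.5 CPM at week 1. It rose by 1.08 (SE 0.28, adjusted p 0.00699), with week 1 replicate 3 above week 4 replicates 1 and 2. Nr1h2, which encodes LXR beta, stood at 155, 172, 130, 146 and 139 CPM at week 4, against 116, 128, 108, 122 and 126 CPM at week 1. Its groups lay close but apart, and it rose by 0.31 (SE 0.08, adjusted p 0.00980). Within title range A, Mylip (1.41, adjusted p 0.0523), Abcg1 (0.69, 0.348) and Nr1h2 (0.36, 0.174) did not pass, and within title range B all 3 did (1.62, 1.44 and 0.19). Nr1h2 was also lost without week 4 replicates 1 and 2 (0.21, adjusted p 0.0852). Abca1 stood at 0.357, 0.282, 1.09, 1.89 and 2.18 CPM at week 4, against 0.570, 1.07, 2.29, 0.354 and 0.452 CPM at week 1, low throughout, and its change of 0.31 (adjusted p 0.774) was -1.19 in title range A (0.343) and 2.35 in title range B (0.00268).

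**Figure D4:**
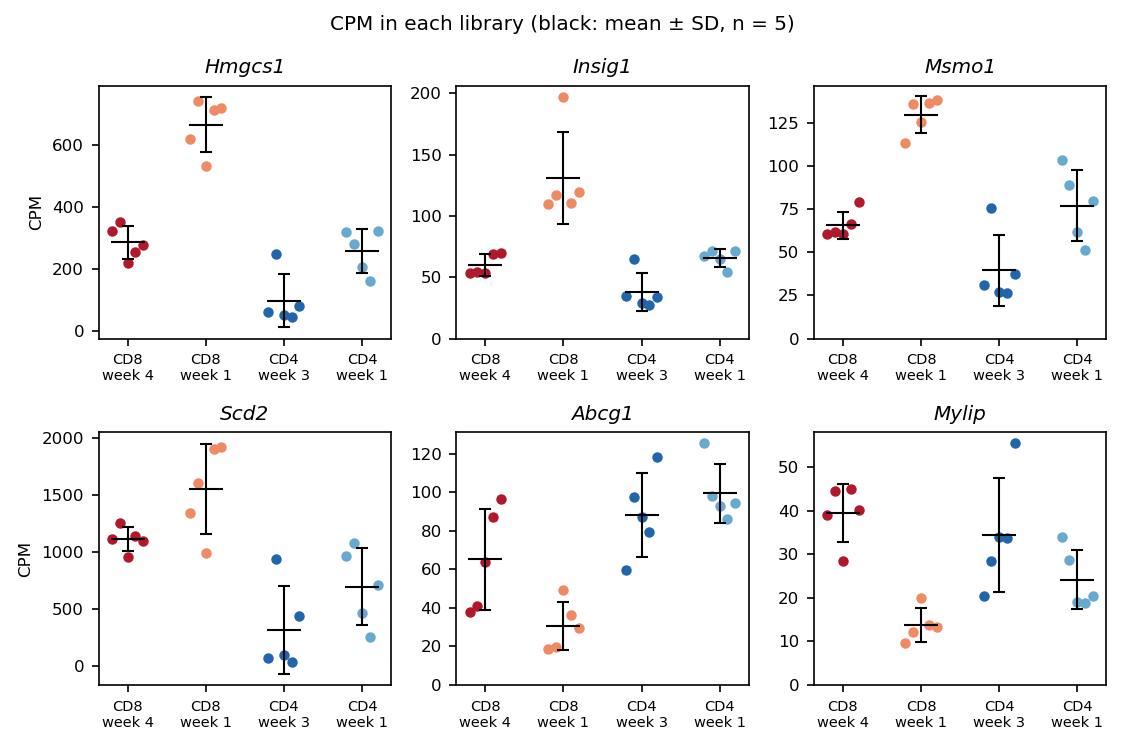
CPM of 6 of the genes in each library (points, 5 per group) with the mean and SD of the group (black). Insig1, Hmgcs1 and Msmo1 are lower in CD8 week 4 than in every CD8 week 1 library, Mylip is higher, and in CD4 week 3 replicate 2 stands above the other 4 libraries for Hmgcs1, Insig1, Msmo1 and Scd2.

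CD4 cells were compared between week 3 and week 1. The sterol synthesis genes were lower at week 3 too, from the mevalonate steps to the last sterol steps, together with Insig1, Fads1 and Acsl3, while no gene of the LXR branch passed. Of the 36 genes, 18 fell, 0 rose and 18 did not pass, beside 8.8% of all tested genes that fell and 7.67% that rose. At an unadjusted p under 0.05, 26 of the 36 differed, and with DESeq2 18 fell and 1 rose. The matching shares of all genes were not at hand, so these counts cannot be read as a trait of the 36. Their median log2 fold change was -0.79, beside 0.01 over all genes. In 0 of the 36 were all week 3 libraries on one side of all week 1 libraries, beside 3.88% of all genes with every week 3 library lower and 4.27% with every one higher.

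All 7 mevalonate and isoprenoid genes fell in CD4 cells. Hmgcs1 stood at 62.9, 248, 52.6, 44.8 and 82.3 CPM in the week 3 libraries, against 320.4, 281, 207, 162 and 323 CPM in the week 1 libraries. Week 3 replicate 2 lay within the week 1 range and the other 4 far below it, and Hmgcs1 fell by 1.40 (SE 0.36, adjusted p 0.0147). Fdps stood at 2.99, 11.2, 3.13, 2.60 and 5.62 CPM at week 3, against 20.6, 19.6, 9.90, 5.44 and 15.2 CPM at week 1. It fell by 1.47 (SE 0.37, adjusted p 0.0135), the largest decrease of a called gene, with the same library as the exception and week 3 replicate 5 just above the lowest of week 1. Pmvk stood at 9.65, 19.7, 10.5, 9.16 and 11.7 CPM at week 3, against 28.3, 36.1, 18.4, 14.96 and 22 CPM at week 1, and fell by 0.98 (SE 0.25, adjusted p 0.0136). Its week 3 replicate 2 alone reached into the week 1 range. Idi1 (-1.22), Mvk (-0.87), Mvd (-0.86) and Acat2 (-0.77) fell with adjusted p between 0.0224 and 0.0409.

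From the making of squalene onwards, 8 of 11 genes fell in CD4 cells. Sqle (ENSMUSG00000022351, chromosome 15, 59315077 to 59331192) stood at 46.5, 142, 32.4, 27.6 and 57.1 CPM at week 3, against 171, 144, 133, 105 and 183 CPM at week 1, and fell by 1.27 (SE 0.31, adjusted p 0.0125). Fdft1 stood at 19.2, 50.8, 16.4, 14.5 and 21.8 CPM at week 3, against 72.1, 68.5, 43.6, 33.6 and 52.9 CPM at week 1, and fell by 1.14 (SE 0.28, adjusted p 0.0125). Msmo1 stood at 31.1, 75.7, 26.9, 26.7 and 37.5 CPM at week 3, against 103.6, 88.9, 62.1, 51.6 and 79.9 CPM at week 1, and fell by 0.96 (SE 0.24, adjusted p 0.0127). In all 3, week 3 replicate 2 alone lay among the week 1 values. Cyp51 (-0.97), Hsd17b7 (-0.89), Nsdhl (-0.83), Dhcr7 (-0.71) and Ebp (-0.35) fell with adjusted p between 0.0173 and 0.0364, and Lss (-0.49, adjusted p 0.211), Sc5d (-0.41, 0.0672) and Tm7sf2 (-0.33, 0.141) did not pass. The summed level of the 18 sterol synthesis genes was 524, 1297, 473, 424 and 617 CPM at week 3, against a lowest of 875, a median of 1394.5 and a highest of 1590.2 CPM at week 1. Replicate 2 was the only week 3 library inside the week 1 range of this sum.

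Week 3 replicate 2 and the other libraries in the fit changed the CD4 calls. Without this replicate, 27 of the 36 genes fell and 1 rose, beside 14.6% and 12.5% of all genes, the median was -1.03, and 17 of the 18 sterol synthesis genes and 7 of the 9 fatty acid genes were among those that fell. Hmgcs1 then stood at -2.09 (adjusted p 1.25e-05), Idi1 at -2.01 (9.74e-07) and Sqle at -1.85 (1.25e-05). With the CD4 libraries alone in the fit, 2 genes fell, Acat2 (adjusted p 0.0467) and Insig1 (0.0485), beside 4.45% of all genes, while the median of the 36 was -0.80.

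Among the control genes Insig1 stood at 34.7, 64.6, 28.9, 27.7 and 34.2 CPM at week 3, against 67.6, 71.1, 64.7, 54.0 and 71.2 CPM at week 1. It fell by 0.79 (SE 0.21, adjusted p 0.0161), and week 3 replicate 2 was the library that reached into the week 1 range. Srebf2 (-0.20), Srebf1 (-0.46), Scap (0.07) and the sterol carrier gene Stard4 (-0.48) did not pass in CD4 cells (adjusted p 0.262, 0.0867, 0.668 and 0.141). The Srebf1 libraries stood at 119, 223, 116, 105 and 146 CPM at week 3, against 226, 227, 167, 146 and 210 CPM at week 1, with week 3 replicate 2 again among the week 1 values and replicate 5 level with the lowest of them, and the gene fell without replicate 2 (-0.68, adjusted p 0.00275). Srebf2 stood at 431, 596, 440, 408 and 502 CPM at week 3, against 618, 526, 487, 525 and 579 CPM at week 1. Scap stood at 161, 161, 152, 150 and 154 CPM at week 3, against 150, 116, 145, 162 and 170 CPM at week 1, a full overlap.

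Of the 9 fatty acid genes, Acsl3 and Fads1 fell in CD4 cells, and all 9 had negative log2 fold changes (median -0.78). Acsl3 stood at 10.99, 27.5, 8.87, 8.84 and 21.1 CPM at week 3, against 40.7, 30.7, 27.7, 22.3 and 46.8 CPM at week 1, with week 3 replicate 2 alone inside the week 1 range, and fell by 1.12 (SE 0.29, adjusted p 0.0164). Fads1 fell by 0.78 (adjusted p 0.0415). Scd2 stood at 71.9, 937, 99.7, 41.2 and 444 CPM at week 3, against 966, 1077.8, 470, 260 and 712 CPM at week 1. Week 3 replicates 2 and 5 overlapped with week 1, the other 3 lay below it, and the change of -1.13 (SE 0.61) did not pass (adjusted p 0.201). Without replicate 2, Scd2 fell by 2.08 (adjusted p 0.00874) and Scd1 by 2.84 (0.0449). Scd1 stood at 0.0447, 8.71, 0, 0 and 5.88 CPM at week 3, against 20.2, 16.2, 2.65, 0.484 and 14.8 CPM at week 1 (-1.89, SE 0.95, adjusted p 0.172), with the same pair of week 3 libraries above the others. Fads2 stood at 0.804, 34.0, 0.343, 0.0456 and 2.71 CPM at week 3, against 29.9, 34.9, 18.5, 6.01 and 25.6 CPM at week 1 (-1.60, adjusted p 0.223). It was -4.53 (adjusted p 0.000122) without week 3 replicate 2, the only week 3 library within the week 1 range. Fasn (-0.41), Acaca (-0.51), Elovl6 (-0.60) and Acly (-0.14) did not pass (adjusted p 0.151, 0.121, 0.192 and 0.467).

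In the LXR branch of CD4 cells, Nr1h2 stood at 133, 115, 141, 145 and 137 CPM at week 3, against 123, 123, 113, 103 and 105 CPM at week 1 (0.24, SE 0.08, adjusted p 0.0543). It was the gene that passed without week 3 replicate 2, the lowest week 3 library (0.29, adjusted p 0.0121). Mylip stood at 20.5, 28.5, 33.8, 33.8 and 55.6 CPM at week 3, against 33.9, 28.7, 19.2, 18.8 and 20.4 CPM at week 1 (0.51, adjusted p 0.146). Abcg1 stood at 59.7, 97.5, 87.3, 79.3 and 118.5 CPM at week 3, against 125.7, 98.3, 92.7, 86.1 and 94.3 CPM at week 1 (-0.17, adjusted p 0.703), and both genes overlapped between the groups. Abca1 stood at 0.536, 1.28, 0.857, 0.319 and 4.27 CPM at week 3, against 3.78, 5.46, 1.00, 1.25 and 1.63 CPM at week 1 (-0.85, adjusted p 0.420).

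Of the genes lower after long culture, 12 were shared: Acat2, Hmgcs1, Mvk, Pmvk, Idi1, Fdps, Fdft1, Msmo1, Nsdhl, Hsd17b7, Dhcr7 and Insig1. They make up 75.0% of the 16 that fell in CD8 cells and 66.7% of the 18 that fell in CD4 cells. The share of all genes that fell in both cell types was not computed, so this sharing is not shown to be particular to these genes. Another 4 were called in CD8 cells alone (Tm7sf2, Sc5d, Stard4 and Acly) and 6 in CD4 cells alone (Mvd, Sqle, Cyp51, Ebp, Fads1 and Acsl3). The test of the difference itself, the CD8 change minus the CD4 change, called 0 of the 36 higher and 0 lower. Of all genes, 0.248% were higher and 0.406% lower in it, and DESeq2 called 0 of the 36 in either direction. At an unadjusted p under 0.05, without the matching share of all genes at hand, 2 of the 36 differed. Those 2 were Abcg1 (1.25, SE 0.39, adjusted p 0.158) and Mylip (1.00, SE 0.34, adjusted p 0.204), both higher in the CD8 change. Abcg1 passed without CD8 week 1 replicate 3 (1.48, adjusted p 0.0436) and without CD8 week 4 replicates 1 and 2 (1.59, 0.0393), and Idi1 passed without CD4 week 3 replicate 2 (1.05, adjusted p 0.0252). For the 18 sterol synthesis genes the differences ran from -0.23 to 0.51, with SE such as 0.50 for Hmgcs1 (0.18) and 0.34 for Msmo1 (-0.02), and none of them passed. The long-term times also differ, 25 days in CD8 and 18 days in CD4 cells.

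CD8 cells were then set against CD4 cells of the same culture stage. At week 1, 8 of the 18 sterol synthesis genes, Insig1, Stard4, Fads1 and Scd1 were higher in CD8 cells, and Abcg1, Mylip and Scap were lower. Of the 36 genes, 12 were higher and 3 lower in CD8 cells, beside 19.1% and 19% of all genes (38.1% together), with a median log2 fold change of 0.45 beside -0.01 over all genes. Every CD8 library was above every CD4 library for 10 of the 36, beside 12.4% of all genes, and below for 1, beside 11.3%. Scd1 was 12.6-fold higher (3.65, SE 0.95, adjusted p 0.00568), Hmgcs1 2.57-fold (1.36, SE 0.36, 0.00572), Fdps 2.02-fold (1.02, SE 0.36, 0.0316) and Insig1 1.99-fold (0.99, SE 0.21, 0.00106), each without overlap between the groups. Abcg1 was 3.23-fold lower in CD8 week 1 (30.8 ± 12.6 CPM) than in CD4 week 1 (99.4 ± 15.3 CPM; -1.69, SE 0.28, adjusted p 0.000170), again without overlap. Mylip (-0.81, adjusted p 0.0131) and Scap (-0.40, 0.00424) were lower with some overlap. Without CD4 week 3 replicate 2, a library of another group whose spread enters every test, 20 of the 36 were higher, beside 22.4% of all genes, and without CD4 week 1 replicate 4, 7 were.

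After long culture the sterol synthesis genes were again mostly higher in CD8 cells (13 of 18), and none of the 36 passed as lower. CD8 week 4 exceeded CD4 week 3 for 19 of the 36 genes, 13 of them sterol synthesis genes, beside 17.7% of all genes that were higher and 15% that were lower. The 0 genes lower were 0 with limma-voom too and 1 with DESeq2, and 24 of the 36 had an unadjusted p under 0.05. The shares of all genes that match these counts were not at hand. The median was 0.63, beside 0.01 over all genes. All CD8 week 4 libraries were above all CD4 week 3 libraries for 3 of the 36, Scd1, Scd2 and Fads1, beside 11.3% of all genes, and below for 1, Tm7sf2, beside 9.3%. Scd1 was 13.9-fold higher in CD8 cells (40.9 ± 7.86 CPM in CD8 week 4, 2.93 ± 4.11 CPM in CD4 week 3; 3.80, SE 0.99, adjusted p 0.00651). Scd2 was 3.49-fold higher (1113 ± 106 CPM in CD8 week 4, 319 ± 382 CPM in CD4 week 3; 1.80, SE 0.62, adjusted p 0.0309), Hmgcs1 2.91-fold (1.54, SE 0.36, 0.00292) and Fdps 2.69-fold (1.43, SE 0.37, 0.00613). Without CD4 week 3 replicate 2 these log2 values were 4.75 for Scd1 (SE 1.06, adjusted p 0.00176), 2.75 for Scd2 (SE 0.56, 0.000854), 2.23 for Hmgcs1 (6.00e-07) and 1.93 for Fdps (0.000145), and limma-voom gave 7.15 for Scd1. The counts moved with the fit, and so did the share of all genes that were higher. Without CD4 week 3 replicate 2, 26 of the 36 were higher, beside 22.4% of all genes. With the 2 groups alone 11 were higher, beside 15.2%, and without CD8 week 4 replicates 1 and 2, 10 were, beside 10.1%. Without CD4 week 3 replicate 3 or without replicate 4, 7 were higher, and the shares of all genes for these fits were not at hand. Of other cells, summed dendritic cell markers stood at 2.39 to 36.6 CPM of the library total in CD8 week 4 and 0 to 0.438 in CD4 week 3, and at 2.20 to 26.2 in CD8 week 1 and 0.0428 to 0.306 in CD4 week 1, with Siglech at 0 in all 4 groups. Summed NK cell markers stood at 6.10 to 51.8 in CD8 week 4 and 0.250 to 1.02 in CD4 week 3, and at 3.03 to 21.1 in CD8 week 1 and 0 to 0.183 in CD4 week 1. Summed B cell markers stood at 1.04 to 8.79 in CD8 week 4 and 0.178 to 1.31 in CD4 week 3, and at 9.50 to 13.1 in CD8 week 1 and 0.707 to 1.42 in CD4 week 1. Stromal markers, mostly Pecam1, stood at 61.0 to 89.1 in CD8 week 4 and 104.9 to 189 in CD4 week 3, and at 68.5 to 106.8 in CD8 week 1 and 157 to 253 in CD4 week 1, and erythroid markers at 0 in CD8 week 4 and at most 18.8 elsewhere. The highest dendritic cell marker was Itgax, except in CD4 week 1, where it was Zbtb46. Klrb1c was the highest NK cell marker and Cd79b the highest B cell marker in each group. Whether other cells or the T cells themselves held these transcripts was not tested, nor was the part of other cells in the differences. The CD8 and CD4 libraries come from separate ranges of title numbers, so cell type and title range cannot be told apart in either comparison.

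The proliferation markers moved in the same direction as the sterol genes. All 17 of these cell cycle genes fell in CD8 cells (median -1.69), beside 16.4% of all genes, and 9 of 17 fell in CD4 cells (median -1.54), beside 8.8%. Between the cell types 0 were called at either stage, beside 38.1% of all genes at week 1 and 32.7% after long-term culture. Their medians for CD8 against CD4 were still 0.84 at week 1 and 0.64 after long-term culture. Those of the 18 sterol synthesis genes were 0.60 and 0.74. The summed level of the proliferation markers was 2185 ± 322 CPM in CD8 week 4 and 6313 ± 1800 CPM in CD8 week 1, and 1459 ± 1289 CPM in CD4 week 3 and 3919 ± 966 CPM in CD4 week 1 (SD, n = 5 each). CD4 week 3 replicate 2, the library with the high sterol sum of 1297 CPM, held 3708 CPM of proliferation markers, against 683 to 1388 CPM in the other CD4 week 3 libraries. CD8 week 1 replicate 3 held 3138 CPM of proliferation markers, where its 4 fellow libraries held 6591 to 7328 CPM, and the lowest sterol sum of its group, 1866 CPM. Single libraries of the other groups went the opposite way. CD4 week 1 replicate 1 held the lowest proliferation sum of its group, 2530 CPM, and the highest sterol sum, 1590 CPM. CD8 week 4 replicate 3 held the highest proliferation sum of its group, 2581 CPM, and the lowest sterol sum. CD8 week 4 replicate 5 held the highest sterol sum of that group, 1383 CPM, with 1868 CPM of proliferation markers. The part of proliferation in the changes of the lipid genes was not tested.

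**Figure D5:**
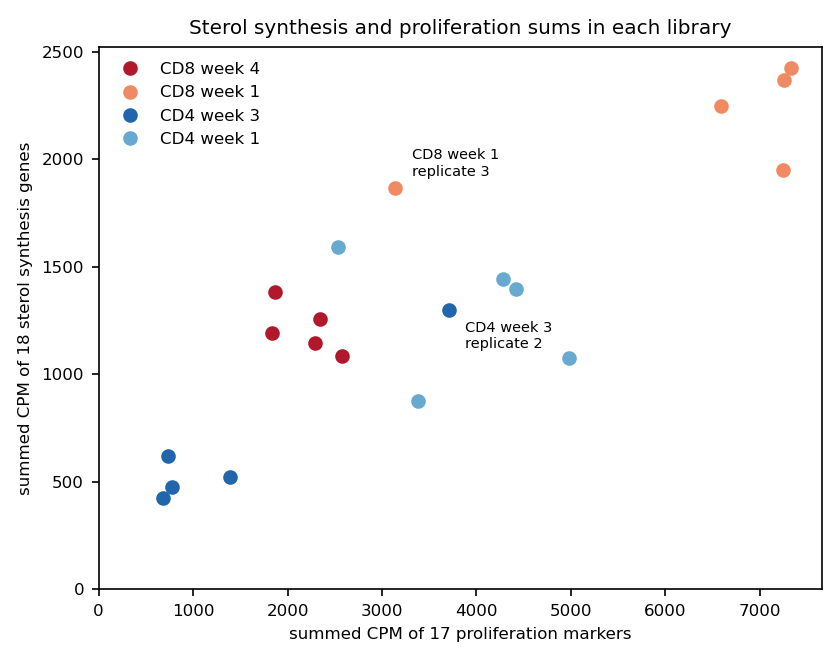
Summed CPM of the 18 sterol synthesis genes (y axis) and of 17 proliferation markers (x axis) in each of the 20 libraries, coloured by group. The CD4 week 3 library that stands apart (replicate 2, 3708 and 1297 CPM) lies among the CD4 week 1 libraries, and CD8 week 1 replicate 3 (3138 and 1866 CPM) lies left of its group.

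Of 48 neighbouring lipid genes in 5 further lists, 44 passed the filter. In CD8 cells 8 rose and 10 fell (median -0.07), beside 17.1% and 16.4% of all genes, and in CD4 cells 3 rose and 2 fell (median -0.03), beside 7.67% and 8.8% of all genes. In SREBP processing and sterol sensing, which holds Insig2 and the site proteases that cleave SREBP, 0 of 7 genes passed in either cell type. Among isoprenoid and sterol enzymes, 1 of 5 fell in CD8 cells, the sterol reductase gene Lbr (374 ± 30.6 CPM at week 4 and 507 ± 80.2 CPM at week 1; -0.44, adjusted p 0.00921), and none in CD4 cells. The 14 tested genes of fatty acid supply, elongation and activation held 2 that rose and 4 that fell in CD8 cells and 1 that rose in CD4 cells. Acss2, which makes acetyl-CoA from acetate, rose in both, with 51.6 ± 10.7 CPM in CD8 week 4 and 37.5 ± 4.00 CPM in CD8 week 1 (0.46, adjusted p 0.0210), and 58.3 ± 7.80 CPM in CD4 week 3 and 39.1 ± 7.11 CPM in CD4 week 1 (0.58, 0.0134; SD, n = 5 each). Slc25a1, the carrier that exports citrate from mitochondria for Acly, fell in CD8 cells (-0.57, adjusted p 0.00795), as did Hsd17b12 of the elongation cycle (-0.48, 0.00736), whereas the elongase gene Elovl7 rose (1.505, adjusted p 0.0261). Elovl7 stood at 5.39, 3.94, 28.2, 25.01 and 29.95 CPM at week 4, against 3.84 to 9.44 CPM at week 1, so that week 4 replicates 1 and 2 lay within the week 1 range, and its change was 2.09 without them (adjusted p 0.00108). Without this pair of libraries Acss2 (0.24, adjusted p 0.227), Hsd17b12 (-0.36, 0.0620) and Lbr (-0.38, 0.0550) no longer passed in CD8 cells. Hsd17b12 fell in CD4 cells without week 3 replicate 2 (-0.37, adjusted p 0.0237).

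In the list of sterol uptake, storage, transport and export, 6 of 17 rose and 4 fell in CD8 cells, beside the 17.1% and 16.4% of all genes, and 2 rose and 2 fell in CD4 cells, beside 7.67% and 8.8%. Nr1h3, which encodes LXR alpha, was low but rose in CD8 cells to 1.66 ± 0.641 CPM at week 4, against 0.432 ± 0.163 CPM at week 1 (1.89, SE 0.34, adjusted p 0.000684), without overlap, and stood at 0.80 in CD4 cells (adjusted p 0.0740). Arl4c, known as an LXR target in human cells, rose in both, by 0.74 in CD8 cells (adjusted p 0.00769) and by 0.66 in CD4 cells (0.0275). Tmem97, whose gene is a known SREBP target, fell by 1.04 in CD8 cells (adjusted p 0.00615) and by 1.03 in CD4 cells (0.0153). The lipoprotein receptor gene Lrp8 fell in CD8 cells (-0.99, adjusted p 0.000723) and stood at -0.40 in CD4 cells (0.126). Nceh1, a cholesterol ester hydrolase gene, rose by 0.25 in CD8 cells (adjusted p 0.0353) and by 0.37 in CD4 cells (0.0121), and Lpcat3, which remodels phospholipids, fell by 0.34 (0.0389) and by 0.39 (0.0396). Sult2b1, a sterol sulfotransferase gene and the only tested member of its list, fell in CD8 cells (-0.92, adjusted p 0.0470; 1.14 ± 0.493 CPM at week 4 and 2.18 ± 0.933 CPM at week 1) and stood at 0.65 in CD4 cells (0.200). Its call was lost without CD8 week 4 replicates 1 and 2 (-0.61, adjusted p 0.191) and without CD8 week 1 replicate 3 (-0.69, 0.123). Nceh1 (0.29, adjusted p 0.0509) and Lpcat3 (-0.29, 0.153) were also lost in CD8 cells without the first pair. Without CD4 week 3 replicate 2, Nr1h3 rose (0.93, adjusted p 0.0295) and Lrp8 fell (-0.56, 0.0228) in CD4 cells, and Nr1h3 also passed there without CD8 week 4 replicates 1 and 2 (0.80, 0.0409). None of the 44 genes passed the test of the difference between the cell types. In that test 5 had an unadjusted p under 0.05, and the matching share of all genes was not at hand.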

How the data were processed

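Poly(A) RNA of 20 sorted T cell samples was sequenced, and the authors deposited raw counts per gene. Reads were aligned with STAR to mm10, per the submitters' processing notes, and counted with featureCounts 1.6.3 on GENCODE M12 exons, per the file headers, reversely stranded and without reads that map to several places or genes. Exon lengths were taken from the deposited table. The counts of all 49671 genes were read, and genes with enough counts by edgeR's filterByExpr (13290) were fitted with edgeR 4.0.16 (quasi-likelihood F-test, TMM scaling, 1 mean per group, all 20 libraries) in R 4.3.3. Adjusted p-values (Benjamini-Hochberg) cover all tested genes, and a gene with an adjusted p under 0.05 is said to have risen or fallen. CPM were computed on TMM-scaled totals, marker sums other than proliferation on plain totals, and standard errors (SE) were derived from log2 fold change and F statistic. Library totals averaged 22.9 ± 4.03 M at week 4 and 18.7 ± 5.58 M at week 1 in CD8 cells, with 23.04 ± 0.656 M at week 3 and 22.6 ± 1.91 M at week 1 in CD4 cells (SD, n = 5 in each group).

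Members and gene lists were chosen with earlier results of these data known. Library values are given for the 8 called members with the smallest adjusted p per long-term comparison, the control genes, the LXR branch and Scd1 and Scd2; further lists name up to 2 called genes each way. Hmgcs1 and Acly in CD8 cells and Fads2 in CD4 cells were given library by library after their values were seen. Replicates were numbered in accession order. Alternatives were RLE size factors, library totals, DESeq2 1.42.0, limma 3.58.1 voom, no filter, a filter of 5 CPM, title range, fits of only the groups compared and leaving out libraries. Promoter windows came from RefSeq (GRCm38.p6).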

Additional observations from a re-analysis of the deposited data

Results flagged for a closer look

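Within each group of 5 libraries, each of the 36 genes was checked for a library far from the other 4 (Dixon's test, 0.71 of the range). Of 144 gene and group pairs 22 were set apart in this way, where chance gives about 1 in 20, or 7.2.

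CD4 week 3 replicate 2 was the highest of its group for 16 of them. In the sterol synthesis genes its CPM were 248.1 for Hmgcs1 (the other 4 libraries 44.8 to 82.3), 19.7 for Pmvk (9.16 to 11.7), 18.6 for Idi1 (3.01 to 4.96), 50.8 for Fdft1 (14.5 to 21.8) and 141.9 for Sqle (27.6 to 57.1). They were 110.9 for Lss (34.7 to 48.5), 232.4 for Cyp51 (54.0 to 105.3), 75.7 for Msmo1 (26.7 to 37.5), 37.1 for Nsdhl (15.6 to 20.2), 30.03 for Hsd17b7 (9.42 to 11.9) and 57.0 for Dhcr7 (28.9 to 35.6). Elsewhere they were 64.6 for Insig1 (27.7 to 34.7), 160.1 for Stard4 (59.7 to 83.8), 449.5 for Acly (307.1 to 343.1), 83.3 for Elovl6 (43.8 to 53.9) and 34.0 for Fads2 (0.0456 to 2.71).

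CD8 week 1 replicate 3 was the highest of its group for Hsd17b7 (69.2 CPM, the others 43.1 to 47.2) and Insig1 (197.3, the others 109.8 to 119.2). It was the lowest for Scap (93.3, the others 115.8 to 118.9) and Acly (320.8, the others 508.4 to 545.5). CD4 week 1 replicate 5 was the highest for Acaca (96.4 CPM, the others 49.3 to 61.1), and CD4 week 3 replicate 5 for Abca1 (4.27, the others 0.319 to 1.28).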

How the results depend on the processing

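RLE size factors and library totals turned the sign of no member in the comparisons run. The CD8 week 4 against week 1 counts of 16 lower and 3 higher became 8 and 0 in title range A, 27 and 5 in title range B, and 9 lower without CD8 week 4 replicates 1 and 2. Leaving out each library in turn gave 9 to 23 lower and 3 higher. The 9 came without CD8 week 1 replicate 4 or 5, and 10 without CD8 week 4 replicate 1. For CD4 week 3 against week 1, the 18 lower became 2 with only the groups compared, and 7 to 27 without single libraries (7 without CD4 week 3 replicate 3 or 4, 9 without replicate 1, 10 without replicate 5, 27 without replicate 2). The 0 higher became 1 with DESeq2, with the filter of 5 CPM and without CD8 week 4 replicates 1 and 2, and 0 to 1 without single libraries. In the difference of the changes, 0 higher became 1 without CD8 week 4 replicates 1 and 2, and 0 to 1 without single libraries. For CD8 against CD4, 12 higher at week 1 became 7 to 20 without single libraries and 3 lower became 3 to 4. After long-term culture, 19 higher became 9 with title range as a term (which sets CD8 cells at the level of title range A against CD4 cells), 11 with only the groups compared, 10 without CD8 week 4 replicates 1 and 2, and 7 to 26 without single libraries, while 0 lower became 1 with DESeq2, with title range as a term and with only the groups compared, and 0 to 1 without single libraries. The cause of these changes was not tested, beyond fewer samples in the smaller fits. The share of all genes that passed moved with the fit too, and it is given in the Results where it was at hand. No paired analysis was possible because the labels give the libraries no replicate numbers shared between groups. Abca1, Scd1 in CD4 cells, Nr1h3 and Sult2b1 had few counts, which limits their precision.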
